A study of Arabidopsis thaliana with 4 samples.

Results

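Extensins are structural glycoproteins of the plant cell wall, and 8 extensin genes together with 2 leucine-rich repeat extensin genes were followed here in Arabidopsis thaliana roots at low and at ample phosphate. The 10 genes were taken by identifier from the 27655 genes of the deposited table: EXT3 (AT1G21310), AT3G54580, HRGP1 (AT3G54590), EXT6 (AT2G24980), EXT12 (AT4G13390), EXT13 (AT5G35190), EXT10 (AT5G06640) and AT5G06630 as extensins, and LRX1 (AT1G12040) and LRX2 (AT1G62440). Roots of wild-type Col-0 seedlings were harvested after 8 days on medium with 5 µM phosphate (low_Pi, 2 libraries) or with 625 µM phosphate (plus_Pi, 2 libraries), in a study of the role of the cytokinin cis-zeatin in the response to phosphate starvation. The name of the deposited table also describes the roots as dark grown, a condition that the sample labels do not mention.

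Extensin backbones are built from short repeats of a serine followed by a run of prolines. The prolines are hydroxylated and decorated with arabinose, and tyrosines between the repeats let peroxidases link the chains into a network within the wall. LRX proteins join an extensin domain to a leucine-rich repeat domain that binds RALF peptides, and LRX1 and LRX2 are known from root hairs, the tubular outgrowths of epidermal cells that take up phosphate. EXT3 is known from its mutant root-shoot-hypocotyl defective, in which the new wall between dividing embryo cells is misplaced.

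The repeats themselves are shown first, because they decide how reads of these genes can be told apart. In the coding DNA a serine-proline repeat reads as the codon TCN followed by CCN codons. The densest stretches of 96 bases in 3 members follow, 5′ to 3′ on the coding strand from the RefSeq TAIR10.1 genome, with each in-frame TCN codon and its 3 or more CCN codons in capitals.
EXT3 (chr1:7454749-7454844, minus strand): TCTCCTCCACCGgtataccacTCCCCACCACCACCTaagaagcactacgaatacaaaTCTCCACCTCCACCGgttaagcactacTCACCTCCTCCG
EXT6 (chr2:10622660-10622755, plus strand): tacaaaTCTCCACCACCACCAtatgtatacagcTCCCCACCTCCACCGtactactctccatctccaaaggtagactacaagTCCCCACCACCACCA
LRX1 (chr1:4071552-4071647, plus strand): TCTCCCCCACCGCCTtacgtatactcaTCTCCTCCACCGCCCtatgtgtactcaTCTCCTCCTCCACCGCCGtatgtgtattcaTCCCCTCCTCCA
The coordinates are those of the printed sequences in TAIR10.1; the build behind the deposited values is not given in the sources used here. EXT3 held 41 such runs in 432 codons, and 44.7% of its codons lay in them. Among the members AT3G54580 held the most, 70 runs in 958 codons, and EXT13 the fewest among the extensins, 16 runs in 335 codons. LRX1 held 15 and LRX2 14, with 11.0% and 9.3% of their codons in runs. Of 27444 nuclear protein-coding genes, 620 (2.26%) held at least 1 run and 28 held at least 10. All 10 members were among those 28. The other 18 were read as a family defined by sequence alone, and 13 of them passed the filter described below.

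Exact repeats of 50 bases lay mostly within a gene. Windows of 50 bases taken along the exons were looked up in the whole genome on both strands. In EXT6, 60% of the windows occurred once in the genome, 35.7% recurred within EXT6 and 4.3% also occurred outside it. AT5G06630 had 67.9% unique windows and AT3G54580 had 69.9%. EXT12 and LRX2 had 100%, LRX1 had 98.3% and EXT10 had 97.9%. With windows of 100 bases the unique share was 84.0% or more in every member, and at most 0.1% of the windows of any member occurred outside it. Read length, and how reads with several matches were counted, are not given in the sources used here.

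**Figure D1:**
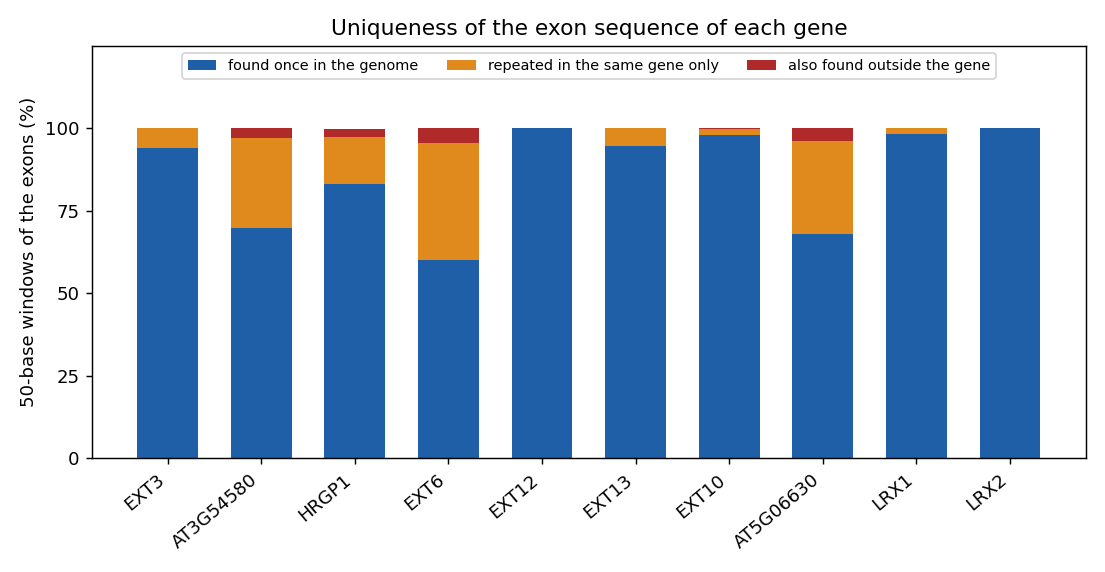
Percentage of 50-base exon windows of each member (bars) that occur once in the TAIR10.1 genome, recur in the same gene only, or also occur outside the gene. EXT6, AT5G06630 and AT3G54580 have the most repeated windows, while EXT12 and LRX2 have none.

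The closest relation between members was that of EXT6 on chromosome 2 and AT5G06630 on chromosome 5. They shared an exact stretch of 101 coding bases near the end of the coding sequence. It is shown in capitals with its neighbouring bases, as the longest exact match between members. The 2 genes also shared 50-base windows outside it.
EXT6 (chr2:10624013-10624129, plus strand): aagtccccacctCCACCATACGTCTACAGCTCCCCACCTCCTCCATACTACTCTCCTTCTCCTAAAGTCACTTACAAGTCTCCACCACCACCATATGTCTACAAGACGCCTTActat
AT5G06630 (chr5:2036505-2036621, minus strand): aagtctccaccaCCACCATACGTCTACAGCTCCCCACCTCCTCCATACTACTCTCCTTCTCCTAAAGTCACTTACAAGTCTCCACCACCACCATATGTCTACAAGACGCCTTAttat
AT3G54580 and HRGP1, which neighbour each other on chromosome 3 in opposite orientation, shared 83 bases. No other pair of members shared more than 49 bases of coding sequence. AT5G06630 and EXT10 are likewise neighbours, on chromosome 5, and their longest shared stretch was 38 bases.

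At low phosphate 9 of the 10 genes were at least 2-fold higher than at ample phosphate and none was 2-fold lower. LRX2 was the exception, at 1.51-fold. The members were chosen with earlier results of these data known. The background is the 18729 genes whose mean over the libraries reached 41.5, where 4.58% reached a 2-fold difference upward in low_Pi and 4.47% downward. Differences are low_Pi minus plus_Pi on the log2(value + 41.5) scale, which understates the differences of low genes. All 10 members passed the filter on the mean, and their lowest mean over 4 libraries, 1374.25 for EXT12, lay far above it. The median difference was 2.18 for the members and -0.26 for all genes tested. With median-of-ratios scaling, which centres the median gene near 0, the median of the members was 2.46, and the numbers of all genes 2-fold higher and lower were 1235 and 428 in place of 857 and 838. The values are normalized and of unknown depth. Taken as read counts, the 2 columns within each group were closer to each other than independent counts would be (chi-square per gene 0.276 for low_Pi and 0.435 for plus_Pi). Each group was therefore counted as 1 sample, no test was run, and the differences have no replicate check.

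EXT3, the most abundant member, had 223361 and 199264 normalized counts at low phosphate, against 89414 and 102818 at ample phosphate. Each low_Pi library was thus well above both plus_Pi libraries, by 2.20-fold on average (log2 1.14). EXT3 was the member nearest to the 2-fold limit from above, and with quantile normalization its difference was 0.81, under 2-fold.

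Among the other extensins the differences were larger and unequal. AT3G54580 had 114810 and 103476 at low phosphate, against 26477 and 29527 at ample phosphate (log2 1.96). Its neighbour HRGP1, named for a hydroxyproline-rich glycoprotein, had 56127 and 51467 at low phosphate, against 8975 and 10373 at ample phosphate (log2 2.47). The values of HRGP1 were 48.9% and 49.7% of those of AT3G54580 in the low_Pi libraries, against 33.9% and 35.1% in the plus_Pi libraries, so the neighbours did not differ by one common factor. EXT13 had 8915 and 7998 at low phosphate, against 2712 and 3216 at ample phosphate (2.83-fold). EXT12, the least abundant extensin at low phosphate, had 2054 and 1905 at low phosphate, against 749 and 789 at ample phosphate (log2 1.32).

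EXT6, EXT10 and AT5G06630 stood highest, near or above 10-fold. EXT6 had 20038 and 17858 at low phosphate, against 1640 and 2003 at ample phosphate, a 10.22-fold difference (log2 3.35). EXT10 had 21470 and 18823 at low phosphate, against 1837 and 2141 at ample phosphate, a 9.95-fold difference (log2 3.31). AT5G06630 had 8468 and 7367 at low phosphate, against 549 and 722 at ample phosphate, an 11.82-fold difference (log2 3.56). In these 3 genes the lower low_Pi library exceeded the higher plus_Pi library by a wide margin. Of the 50-base windows, 97.9% were unique in EXT10, 67.9% in AT5G06630 and 60% in EXT6, and the part of repeated sequence in these differences was not tested. AT5G06630 depended most on the plus_Pi library, with differences of 3.75 against replicate 1 and 3.38 against replicate 2.

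The LRX genes differed from each other. LRX1 had 15957 and 14891 at low phosphate, against 2672 and 3100 at ample phosphate (log2 2.40, 5.29-fold). LRX2, known to act together with LRX1 in root hairs, had 1852 and 1692 at low phosphate, against 1101 and 1211 at ample phosphate (log2 0.60). The low_Pi values of LRX2 were above those of plus_Pi without overlap, yet the difference was below 2-fold in every alternative tried, with a range of 0.53 to 0.87. LRX2 amounted to 11.6% and 11.4% of LRX1 in the low_Pi libraries, against 41.2% and 39.1% in the plus_Pi libraries. Over all members, 10 of 10 had both low_Pi values above both plus_Pi values, which was so for 21.9% of all genes tested. At least 4-fold higher were 5 members (HRGP1, EXT6, EXT10, AT5G06630 and LRX1), against 1.45% of all genes tested. AT3G54580, at log2 1.96, lay just under 4-fold. At least 1.5-fold higher were all 10, against 8.77% of all genes tested. LRX2, at 1.51-fold, lay just above this limit. It fell under 1.5-fold without low_Pi replicate 1 (log2 0.54), without plus_Pi replicate 1 (log2 0.53) and with a larger pseudocount (log2 0.54).

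**Figure D2:**
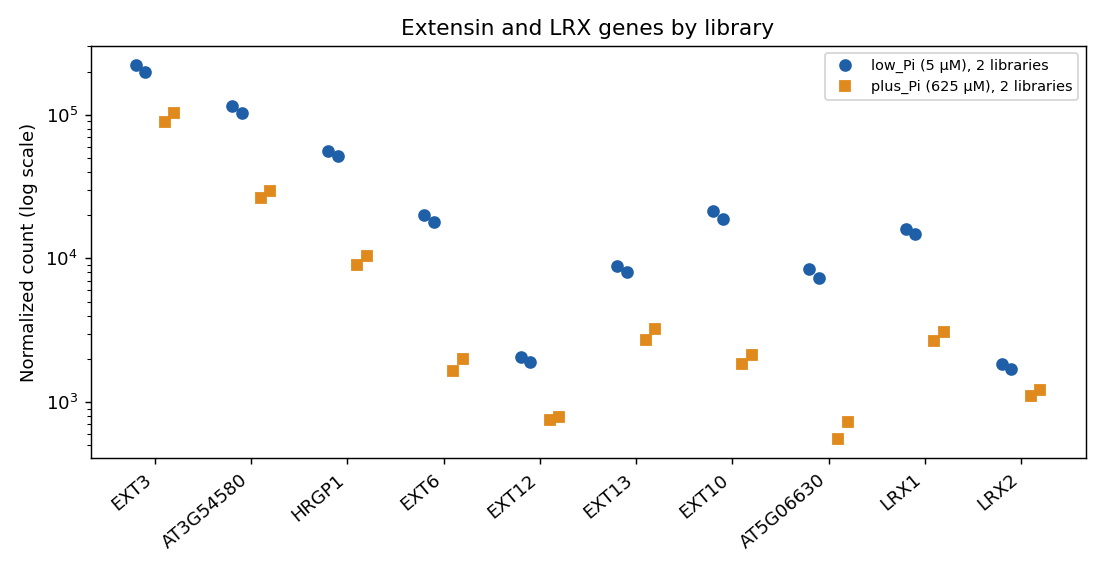
Normalized counts (log axis) of the 10 members in each library, with low_Pi as circles and plus_Pi as squares. The groups do not overlap for any member, the gap being widest for AT5G06630 (8468 and 7367 against 549 and 722) and narrowest for LRX2 (1852 and 1692 against 1101 and 1211).

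Together the 8 extensins took 1.082% and 1.051% of the column totals in low_Pi, against 0.326% and 0.340% in plus_Pi. The log2 difference of their summed values, which does not depend on how reads are split among the 8 genes, was 1.61. EXT3 made up 49.1% and 48.8% of the sum in low_Pi, against 67.6% and 67.8% in plus_Pi. EXT6, EXT10 and AT5G06630 together made up 11.0% and 10.8% in low_Pi, against 3.0% and 3.2% in plus_Pi. EXT3 thus remained the largest part of the sum in every library while its share was smaller at low phosphate.

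**Figure D3:**
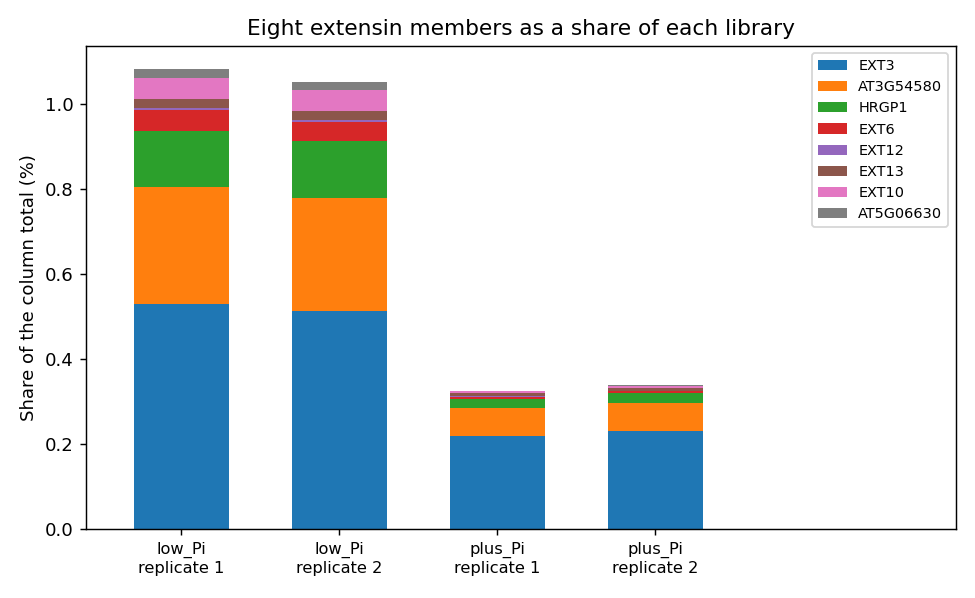
Stacked bars of the 8 extensins as a percentage of the column total of each library, low_Pi on the left. The stack reaches 1.082% and 1.051% in low_Pi and 0.326% and 0.340% in plus_Pi, with EXT3 as the largest block in each.

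Levels of different genes were compared per kilobase of exon, with exon lengths from the RefSeq annotation. EXT3 stood first, at a mean of 127758.5 normalized counts per kilobase in low_Pi and 58111.2 in plus_Pi. AT3G54580 and then HRGP1 followed in both groups, with 32609.2 and 20254.9 per kilobase in low_Pi and 8366.3 and 3642.3 in plus_Pi. Below them the order changed. In low_Pi it ran EXT6, EXT10, EXT13, LRX1, AT5G06630, EXT12 and LRX2, and no neighbours overlapped between libraries. In plus_Pi it ran EXT13, LRX1, EXT6, EXT10, LRX2, EXT12 and AT5G06630, where LRX1 overlapped with EXT6, EXT6 with EXT10, and LRX2 with EXT12. By this measure AT5G06630 was the lowest member in plus_Pi, at 411.6 per kilobase, and reached 5127.9 in low_Pi. Full exon lengths were used, though 67.9% of 50-base windows were unique in AT5G06630 and 60% in EXT6, against 100% in EXT12 and LRX2. The annotated exon of LRX2, 2361 bases, held only coding sequence, unlike those of the other members. The part of repeated sequence and of annotated length in this order was not tested.

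In neither group were the 2 replicates equally far from the other group. The median gene was 1.099 times as high in plus_Pi replicate 2 as in replicate 1, and 9 of the 10 members had a larger ratio, up to 1.315 for AT5G06630 and 1.221 for EXT6. In low_Pi the median gene was 0.924 times as high in replicate 2 as in replicate 1, and 2 of the 10 members had a larger ratio. The part of these shifts in the differences was not tested. Without plus_Pi replicate 2 the same number of members, 9, was at least 2-fold higher and the median was 2.27. Annotated genes on the opposite strand overlap EXT3 (AT1G21313) and EXT10 (AT5G06645), and both had a value of 0 in all libraries.

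Extensins outside the member list behaved less uniformly, though members and lists were chosen with earlier results of these data known. Of 10 further extensin genes listed by identifier and present in the table, 7 passed the filter, 2 were at least 2-fold higher, 1 was lower, and the median was 0.64. The higher ones were AT4G08400, with 1941 and 1805 at low phosphate against 735 and 856 at ample phosphate (log2 1.20), and AT4G08410 (log2 1.02). The call for AT4G08410 was lost without low_Pi replicate 1 (0.93) and without plus_Pi replicate 1 (0.95). AT1G26240, also a proline-rich extensin-like gene, was lower, with 46 and 40 at low phosphate against 610 and 607 at ample phosphate (log2 -2.94). The 4 that were not 2-fold apart were more abundant than these. AT2G43150 had 127365 and 114570 at low phosphate, against 72212 and 82668 at ample phosphate (log2 0.64). AT3G28550 was at 0.83, AT1G23720 at 0.09 and EXT4 at -0.85. Over the 18 other genes with at least 10 repeat runs, 3 of the 13 that passed the filter were at least 2-fold higher and 2 were lower, with a median of 0.09. Of 9 other genes of the LRX family, none of the 7 that passed was 2-fold higher. One of them, AT2G15880, was lower, with 598 and 552 at low phosphate against 1824 and 1984 at ample phosphate (log2 -1.66).

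Enzymes that modify extensins were mostly under 2-fold. The prolyl 4-hydroxylases that hydroxylate extensin prolines included P4H5, with 8036 and 7389 at low phosphate against 5409 and 6057 at ample phosphate (log2 0.43), and P4H2 (log2 0.33). A further one, P4H13, was below the filter. Of 9 genes for the sugar-adding enzymes, none was 2-fold apart and the median was -0.10. The largest difference among these in genes with a mean of at least 208 was that of AT3G57630, an exostosin family gene, at 0.66. The 3 peroxidase genes listed for extensin crosslinking were all at least 2-fold higher, and RHS19 (AT5G67400) had 17164 and 16050 at low phosphate against 1948 and 2250 at ample phosphate (log2 2.96). AT4G26010 was at 2.27. AT1G05240 was at 1.90.

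Among the ligands and receptors that LRX proteins work with, 1 of 6 measured genes reached a 2-fold difference. It was RALFL22, a gene for a RALF peptide, with 9121 and 8509 at low phosphate against 2636 and 2917 at ample phosphate (log2 1.65). FER, the receptor kinase FERONIA that senses RALF peptides, was at 0.03, with 15435 and 14366 at low phosphate against 13979 and 15299 at ample phosphate. RALFL33 was at 0.61 and RALF1 at 0.50.

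Of 7 other wall proteins of root hairs, all 7 were at least 2-fold higher (median 2.22), among them PRP3, a proline-rich wall protein gene, with 28167 and 25855 at low phosphate against 3904 and 4559 at ample phosphate (log2 2.67). Of 11 root hair markers, 3 of which are on the list of wall proteins too, 6 were at least 2-fold higher with none 2-fold lower, and no marker was at 0 (median 1.63). Of the 8 markers outside the wall list, 3 were at least 2-fold higher. RHD2, an NADPH oxidase gene of hair growth, was at 0.56, RHD6, a transcription factor of hair initiation, at 0.45, and CSLD3, a cellulose synthase-like gene, at 0.13. All 11 root hair markers together had summed values of 57986 and 53926 at low phosphate, against 18341 and 20554 at ample phosphate. The wall genes RHS13 and AGP3 were at 2.99 and 2.58, and the xyloglucan endotransglucosylase genes XTH14 and XTH26, which remodel the wall, were at 2.99 and 3.68. RSL2, a transcription factor of root hair growth, was at 2.38, while its relatives RSL4 and RSL1 were at -0.30 and -0.41. The 4 markers of non-hair epidermis had summed values of 1198 and 1102 at low phosphate, against 1713 and 1869 at ample phosphate. None of them was 2-fold apart and none was at 0, with GL2 and MYB66, regulators of the non-hair fate, at -0.63 and -0.66. Markers of endodermis (6 measured), meristem (5), root cap (3) and green tissue (4) included none that was 2-fold higher, with medians of 0.34, -0.86, -0.39 and -1.18. At least 2-fold lower were 1 meristem, 1 root cap and 3 green tissue markers. The meristem marker, AIL6 (-1.09), fell just short of 2-fold without low_Pi replicate 2 (-0.9991). In whole roots, more root hair cells and more RNA of these genes per cell cannot be told apart, and the part of either in the member differences was not tested.

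**Figure D4:**
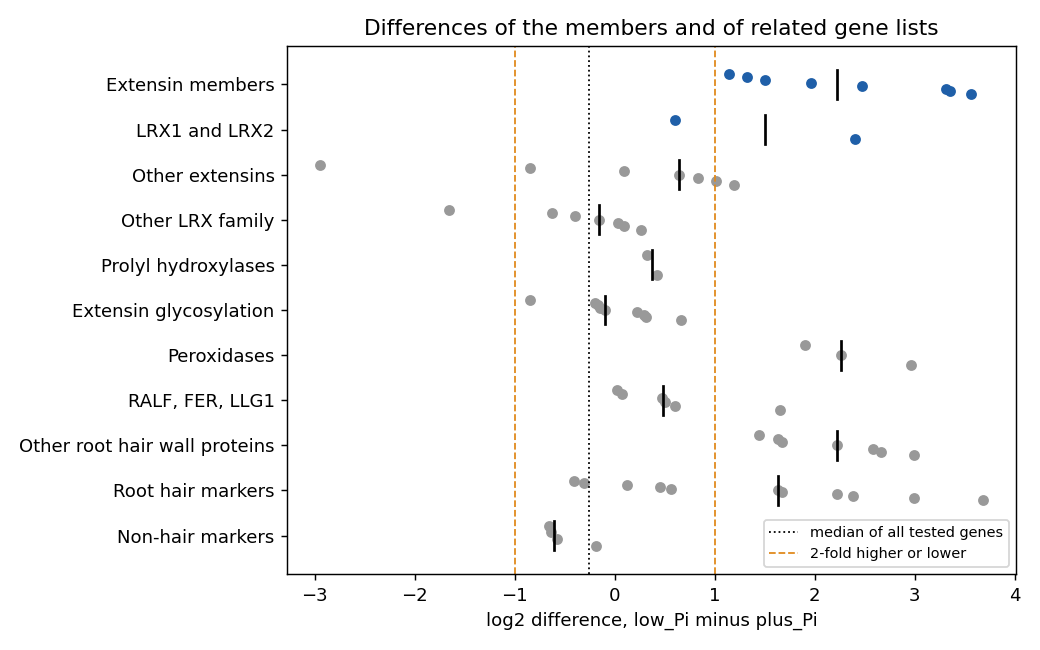
log2 difference (low_Pi minus plus_Pi) of each gene that passed the filter, for the members (top 2 rows) and related lists, with the list median as a bar, the median of all genes dotted and 2-fold limits dashed. All extensin members, the 3 peroxidases and the 7 other root hair wall proteins lie right of the upper 2-fold limit.

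The regions upstream of the genes were searched for the root hair element, a promoter element known from Arabidopsis genes active in root hairs, and for GNATATNC, the sequence bound by the phosphate starvation regulator PHR1. Both strands were searched over 300 bases before each annotated gene start. The full root hair element occurred upstream of LRX1 and LRX2 alone among the members. It occurred upstream of 0.915% of 27443 nuclear protein-coding genes and of 3.97% of the genes at least 2-fold higher in low_Pi. A shorter core, TG and CACG with 4 or 5 unspecified bases between them, was chosen after the data were seen. It leaves out the flanking letters of the full element and its G or T just before CACG. In the core matches printed below, LRX1 and LRX2 have G at that place, and the extensins have A or C. The shorter core occurred upstream of 9 of the 10 members. It occurred upstream of 10.4% of all genes and 20.3% of the genes at least 2-fold higher in low_Pi. EXT3 was the member without a match, also over 500 bases. GNATATNC occurred upstream of no member over 300 or 500 bases, of 6.50% of all genes over 300 bases and of 15.9% of the genes at least 2-fold higher. The 2 spacings of the core overlap in letters with the full element, so these searches are not independent.

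The core matches nearest to each start are shown in capitals on the strand of the gene, because several are alike beyond the letters searched.
EXT6 (chr2:10622311-10622351, plus strand): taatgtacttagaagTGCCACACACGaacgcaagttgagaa
AT5G06630 (chr5:2037900-2037940, minus strand): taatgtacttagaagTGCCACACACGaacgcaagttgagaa
EXT10 (chr5:2041978-2042018, minus strand): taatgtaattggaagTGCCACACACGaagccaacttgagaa
EXT12 (chr4:7783696-7783736, plus strand): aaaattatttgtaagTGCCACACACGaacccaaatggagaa
EXT13 (chr5:13434016-13434056, plus strand): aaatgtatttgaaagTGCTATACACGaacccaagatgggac
AT3G54580 (chr3:20203952-20203991, minus strand): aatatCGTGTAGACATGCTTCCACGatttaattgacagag
HRGP1 (chr3:20206030-20206069, plus strand): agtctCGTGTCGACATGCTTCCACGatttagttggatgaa
LRX1 (chr1:4069886-4069925, plus strand): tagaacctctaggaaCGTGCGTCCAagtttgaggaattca
LRX2 (chr1:23112663-23112703, plus strand): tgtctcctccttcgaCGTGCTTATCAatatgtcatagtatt
The windows of EXT6 and AT5G06630 were identical over 41 of 41 bases, and their 300 upstream bases shared an exact stretch of 51 bases. The window of EXT10 matched that of EXT6 at 36 of 41 bases, that of EXT12 at 32 and that of EXT13 at 31. EXT6, AT5G06630 and EXT10, the 3 members with the largest differences, thus have the most similar windows. EXT12, with the same capitals and 33 of 41 bases matching EXT10, was at log2 1.32. Whether likeness of the windows goes with the size of the difference was not tested. The windows of AT3G54580 and HRGP1 each held 2 cores side by side in opposite directions and matched at 32 of 40 bases. In LRX1 and LRX2 the core lies on the opposite strand. The annotated starts of EXT10 and LRX2 coincide with their start codons, so their true upstream regions may begin farther away. A match is a description of letters and was not tested for binding or activity.

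**Figure D5:**
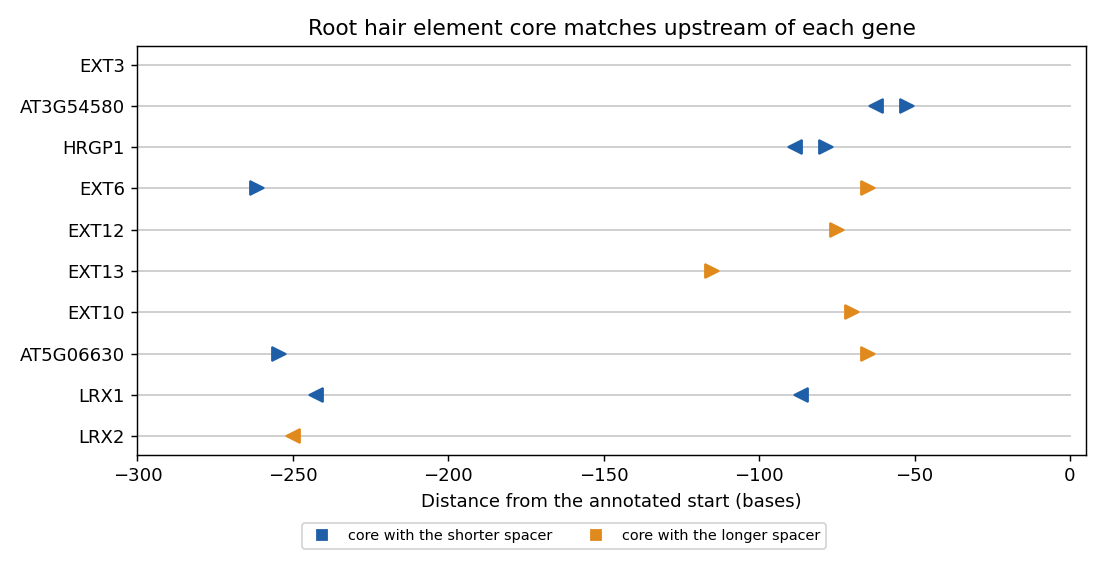
Core matches in the 300 bases upstream of each member, by distance from the annotated start (0 at the right), in blue for the shorter and orange for the longer spacer, with arrowheads pointing right for matches on the strand of the gene and left for the opposite strand. All members except EXT3 have a match, and 8 of them have one within 120 bases of the start.

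By the pattern over the 4 libraries, the genes most like the median profile of the members were SQP2 (AT5G24140, squalene monooxygenase 2), AT4G31250, FHL (AT5G02200), HIS1-3 (AT2G18050) and SPD1 (AT3G10420). Likeness was the Euclidean distance between log2 values centred on each gene's mean, over 12894 genes whose mean reached 415, and ran from 0.01 to 0.03 for these 5 genes. SQP2 had 6937 and 6397 at low phosphate, against 1340 and 1542 at ample phosphate. The 4 libraries fall into 2 groups, so this likeness reflects little beyond the size of a single difference per gene.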

How the data were processed

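Whole-root RNA was selected for polyadenylated RNA and made into Illumina libraries, per the labels' protocols. CASAVA 1.4 and the tools FastQC, HTSeq, HISAT2 and edgeR appear in the submitters' processing notes, with no roles given. The deposited values, whole numbers that the authors call normalized counts, with the steps not given in the sources used here, form a table of 27655 genes and were treated as a score. Their depth is unknown, so no count model was fitted and no counting interval was computed. Column totals ran from 38831704 to 44635953. The second low_Pi column was matched to its group only. The labels do not say whether libraries of a group are separate cultures.

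No rescaling was applied. Before log2, 41.5 was added as a pseudocount (a fixed share of the mean total), and genes whose mean reached 41.5 were kept. Calls are by a 2-fold size rule. Gene names, exon lengths, coordinates and sequences came from RefSeq TAIR10.1, whose gene table held 27445 of the 27655 identifiers. EXT11 was listed but is not analysed here. Members, lists and rules were chosen with earlier results of these data known. Named genes are all members, the 3 largest differences per list with a mean of at least 208, FER, and the 5 genes nearest in pattern. P4H13, AT1G05240, RSL1, RSL4, RHD2, RHD6, CSLD3, AT2G16630, the genes overlapping members (AT1G21313 and AT5G06645) and 2 genes with an upstream match (AT1G30680 and AT1G18960) were named after their values were seen. So were the extensin genes AT2G43150, AT3G28550, AT1G23720 and EXT4. The planned protein sequences were not used here. Repeats and core motifs were read from coding and upstream DNA, and were chosen after the data were seen. The log2 computation was tested on simulated data. Alternatives covered the pseudocount, filter, scaling, group mean, fold size and omission of each library. Computations used Python 3.11.15, pandas 2.3.3 and numpy 2.4.6.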

Additional observations from a re-analysis of the deposited data

How the results depend on the processing

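Each of the 10 members kept its direction under 12 alternatives (pseudocount, filter, scaling, linear means and the omission of each library), and none of the 120 values moved by 1.5-fold. Part of this was fixed in advance. The filter settings cannot change the value of a member. Since the groups do not overlap for any member, leaving out 1 library cannot reverse a direction. In 1 of the 120 values a member crossed the 2-fold limit: EXT3 was at 0.81 with quantile normalization, which left 8 members at least 2-fold higher. At a fold size of 4 there were 5 members and at 1.5 there were 10, each count with a gene near its limit. AT3G54580 (1.96) passed 4-fold with median-of-ratios scaling (2.24) and with scaling to a common column total (2.04). It also passed without low_Pi replicate 2 (2.04) and without plus_Pi replicate 2 (2.04), but in no other alternative. LRX2 was under 1.5-fold without low_Pi replicate 1, without plus_Pi replicate 1 and with a pseudocount of 208, but in no other alternative. The median of the members ran from 2.09 to 2.27 when 1 library was left out, with 9 members higher each time. Among all genes, the number at least 2-fold higher (857) was 565 with a pseudocount of 208, 1643 by a limit of 1.5-fold and 272 by one of 4-fold, and ran from 796 to 943 without 1 library. The number 2-fold lower (838) was 1310 with a pseudocount of 4.15, 350 with one of 208, 428 with median-of-ratios scaling, 502 with quantile normalization, 3885 by a limit of 1.5-fold and 108 by one of 4-fold, and ran from 695 to 1027 without 1 library. No paired analysis was possible because the results come from no test, each group being counted as 1 sample. Depth is unknown, so no limit for low values can be given.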

Other observations

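Genes described as Pollen Ole e 1 allergen and extensin family carry an extensin name, and none of them held 10 or more repeat runs. Of these genes 14 passed the filter, of which 3 were at least 2-fold higher and 1 was lower in low_Pi (median 0.39). The lower one, AT2G16630, was at -1.05, and was under 2-fold without low_Pi replicate 2 (-0.95) and without plus_Pi replicate 2 (-0.9987). The largest difference was that of AT5G05500, named PRPL1 among its synonyms, with 5460 and 5081 at low phosphate, against 1114 and 1261 at ample phosphate (log2 2.11). AT5G19810, a proline-rich extensin-like gene with 17 repeat runs that was on no list by identifier, had 532 and 508 at low phosphate, against 42 and 38 at ample phosphate (log2 2.78). The extensin-like receptor kinase genes PERK10 and PERK1 were at -0.25 and -0.22, near the median gene.

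The exact 11 bases TGCCACACACG, chosen after the upstream windows of the members were seen, occurred within 300 bases upstream of 8 of 27443 genes. They included the 4 members whose windows gave these letters (EXT6, EXT12, EXT10 and AT5G06630), so their values are no support for the motif. The other 4 were the extensin genes AT4G08400 at 1.20 and AT4G08410 at 1.02, AT1G30680 at -0.62, and AT1G18960, which was below the filter. AT4G08410 was at 0.95 without plus_Pi replicate 1 and 0.93 without low_Pi replicate 1.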
